A study of Mus musculus with 6 samples.

Results

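Genes for 8 leukocyte integrin subunits and for the adhesion ligand ICAM-1 were followed in RNA-seq libraries of mouse group 3 innate lymphoid cells (ILC3s), lymphocytes of mucosal tissue that lack antigen receptors. The members were taken by symbol from the deposited gene count table, 9 of 55401 gene identifiers, with Itga4, Itgae, Itgal and Itgav as alpha subunits, Itgb1, Itgb2, Itgb3 and Itgb7 as beta subunits, and Icam1. No selectin gene is among them. All 9 passed the low count filter that left 18253 genes for testing. The labels place the cells in small-intestinal lamina propria of wild-type pups and give 3 libraries a pretreatment with vehicle and 3 a pretreatment with PEox. PEox is not spelled out there; in work on ferroptosis the term usually stands for oxidised phosphatidylethanolamine. The age of the pups, the dose, the length of the pretreatment and whether the animals or the cells received it are not stated in the labels. Nothing in the labels ties a library to its own animal, so p-values reflect only how these libraries differ, and that spread may be technical.

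Integrins are receptors built from 1 alpha and 1 beta chain that hold leukocytes to other cells and to matrix, and they bind firmly only after talin and kindlin proteins engage the beta tail from inside the cell. Alpha E pairs with beta 7 and binds E-cadherin on epithelium, while alpha 4 pairs with beta 7 to bind the gut vessel addressin MAdCAM-1 or with beta 1 to bind VCAM-1. Alpha L and beta 2 form LFA-1, whose ligands include ICAM-1, and alpha v pairs with beta 1, beta 3 and other beta chains to bind matrix proteins and to activate latent TGF-beta.

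Upstream sequence was available from RefSeq for 5 of the 9 genes, and the 250 bases before the annotated start are shown for the 3 members that fell in PEox. Capitals mark matches, on either strand, to a kappa B variant (GGAAATTCC, picked after it was seen in the Icam1 sequence), to the STAT element GAS (TTCNNNGAA), to a RUNX core (TGTGGT) and to a GC box (GGGCGG). The windows are on GRCm38.p6, at chr9:21015690-21015939 on the plus strand for Icam1, chr2:79255176-79255425 on the plus strand for Itga4 and chr15:102231936-102232185 on the minus strand for Itgb7.
Icam1: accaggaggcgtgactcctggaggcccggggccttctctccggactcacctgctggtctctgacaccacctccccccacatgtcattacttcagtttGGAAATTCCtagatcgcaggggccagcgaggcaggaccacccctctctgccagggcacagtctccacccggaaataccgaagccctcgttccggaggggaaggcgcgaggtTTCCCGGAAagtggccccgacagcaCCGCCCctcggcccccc
Itga4: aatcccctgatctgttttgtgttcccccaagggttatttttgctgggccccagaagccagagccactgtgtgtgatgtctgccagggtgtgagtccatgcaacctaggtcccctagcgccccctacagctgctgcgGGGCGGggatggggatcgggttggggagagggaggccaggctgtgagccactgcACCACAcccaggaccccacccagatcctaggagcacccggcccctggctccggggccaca
Itgb7: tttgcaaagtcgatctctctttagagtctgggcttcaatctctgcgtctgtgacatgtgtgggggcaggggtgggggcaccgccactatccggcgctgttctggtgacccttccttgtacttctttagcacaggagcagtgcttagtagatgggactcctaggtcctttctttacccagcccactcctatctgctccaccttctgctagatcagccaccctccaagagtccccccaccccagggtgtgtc
In Icam1 the kappa B variant began 153 bases and the GAS element 42 bases before the start, and a GC box lay 17 bases before it. In Itga4 the RUNX core began 60 and the GC box 114 bases before the start. Itgb7, which also fell, had no match. Of the members that rose, Itgb1 had a GC box 151 bases before the start and Itgav had no match. Among 32851 such windows of all promoters in the reference, 0.286% held the kappa B variant, 7.02% a GAS element, 14% a RUNX core and 32.7% a GC box. The standard NF-kappa B consensus, present in 7.25% of these windows, was in none of the 5 member windows. These matches describe the letters in the window and say nothing about which factors bound there.

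Total counts ran from 56252806 to 66849230 per library. The protocol text names sorted EpCAM+ CD45- epithelial cells where the cell type label names ILC3s, so markers were read first. The 15 ILC3 markers summed to 13900 to 14200 CPM (counts scaled to library depth by TMM factors) in vehicle and to 7240 to 7320 in PEox. Among them Il7r, the interleukin 7 receptor gene on which ILC3s depend, lay between 188 and 196 CPM in vehicle and between 164 and 184 in PEox. The 12 epithelial markers summed to 98.7 to 112 CPM in vehicle and 61.6 to 68.5 in PEox. Over all libraries Epcam lay at 28.5 to 55.6 CPM, Krt8 at 12.7 to 34.5 and Krt18 at 12.1 to 21.7. Krt19 was at no more than 1.52 CPM and the enterocyte gene Alpi at 0. Of all 18253 genes tested, 6775 changed (37.1%) by the edgeR quasi-likelihood test at a Benjamini-Hochberg adjusted p under 0.05, 18.3% higher and 18.8% lower in PEox. Of the 15 ILC3 markers, 9 were called lower and 2 higher, so falling markers were not particular to the other cell types given below.

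In the PEox libraries the ligand gene Icam1 and the gut homing subunit genes Itgb7 and Itga4 fell, and Itgb1, Itgav, Itgb3 and Itgal rose. Of the 9 genes, 4 were higher and 3 lower by the edgeR test, and Itgae and Itgb2 did not pass. The share called was thus above the 37.1% of all genes, though with 9 chosen genes this is a description. The 37.1% also covers weakly expressed genes, while no member lay below 15.68 CPM in any library. Among the 10743 genes with at least 5 CPM in 3 libraries, 6507 were called, a larger share than 37.1%. CPM ranges of the groups did not overlap for 8 of the 9 genes, 5 higher and 3 lower, against 50.6% of all genes in either direction, 24.1% higher and 26.5% lower. In these bulk libraries, fewer cells that carry a transcript and less of it per cell cannot be told apart.

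**Figure D1:**
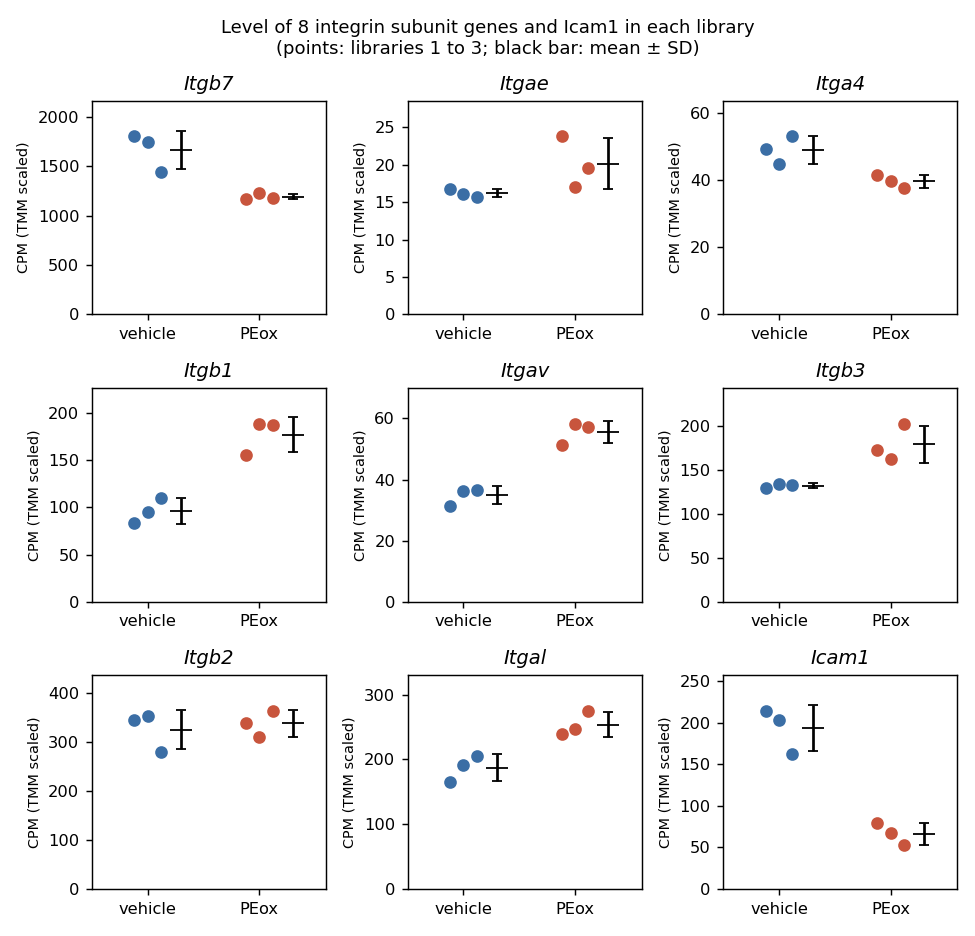
Level in CPM (linear axis from 0) of each of the 9 genes in the 3 vehicle (blue) and 3 PEox (red) libraries, with mean ± SD in black. Icam1, Itgb7 and Itga4 lie lower in every PEox library than in any vehicle library, Itgb1, Itgav, Itgb3, Itgal and Itgae lie higher, and the Itgb2 ranges overlap.

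Itgb7 encodes the beta chain of both gut-associated integrins, alpha 4 beta 7 and alpha E beta 7. It lay at 1804, 1745 and 1447 CPM in vehicle libraries 1 to 3 and at 1174, 1228 and 1181 CPM in PEox libraries 1 to 3. Vehicle library 3 stood below the other vehicle libraries but above every PEox library. The means were 1665 ± 191 and 1194 ± 29.2 CPM (n = 3 per group, SD), a log2 fold change of -0.48 with an SE of 0.08 (adjusted p = 0.00159, edgeR), so that the PEox level was 0.717 times that of vehicle. Mast cell and basophil markers, from a lineage that also carries beta 7, were lower in the same libraries. Of 9 such markers, 5 were called lower and none higher, against 18.8% and 18.3% of all genes. Summed levels were 157 to 165 CPM in vehicle and 24.9 to 31.1 in PEox. The markers' part in the Itgb7 difference was not tested.

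Itga4, which encodes the alpha chain shared by alpha 4 beta 7 and alpha 4 beta 1, lay at 49.4, 44.8 and 53.0 CPM in vehicle and at 41.5, 39.8 and 37.7 CPM in PEox. Every PEox library was below every vehicle library, by a narrow margin between vehicle library 2 and PEox library 1. The means were 49.1 ± 4.15 and 39.7 ± 1.92 CPM (n = 3 per group, SD), with a log2 fold change of -0.31 with an SE of 0.09 (adjusted p = 0.0311, edgeR). This call was lost with library size scaling (log2 fold change -0.17, adjusted p = 0.194), and when any of 4 libraries was left out, namely vehicle 1 (edgeR adjusted p = 0.0949), vehicle 3 (0.114), PEox 2 (0.061) and PEox 3 (0.0805). After correction for trends with GC content and transcript length within each library, which was not planned beforehand, the log2 fold change was -0.47. In the reference annotation Itga4 shares 1124 exon bases with Cerkl on the opposite strand, which had 56 to 171 counts per library against 2281 to 3336 for Itga4.

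Itgae encodes the alpha E chain (CD103), through which intraepithelial and mucosal lymphocytes bind E-cadherin. It lay at 16.7, 16.1 and 15.7 CPM in vehicle and at 23.8, 17.1 and 19.6 CPM in PEox. The vehicle libraries were close together, and PEox library 2 lay just above them. The means were 16.2 ± 0.52 and 20.2 ± 3.38 CPM (n = 3 per group, SD), and the log2 fold change of 0.32 ± 0.14 (SE) did not pass (edgeR adjusted p = 0.129). Its 95% interval ran from -0.02 to 0.65. With library size scaling it was 0.45 and passed (adjusted p = 0.0373). Haspin, a mitotic kinase gene nested in Itgae on the opposite strand in the reference annotation, shares 0 exon bases with it; this gene, chosen for its position, went from 21.7 ± 1.10 to 16.5 ± 1.67 CPM (n = 3 per group, SD).

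Itgb1 encodes the beta 1 chain, the partner of many alpha chains in receptors for fibronectin, collagen, laminin and VCAM-1. It lay at 83.6, 95.3 and 110 CPM in vehicle and at 156, 189 and 187 CPM in PEox, with a wide gap between the groups. The means were 96.4 ± 13.5 and 177 ± 18.5 CPM (n = 3 per group, SD), a log2 fold change of 0.88 with an SE of 0.11 (adjusted p = 0.000523, edgeR), or 1.84-fold. It was the largest rise among the 9 genes.

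Itgav, the alpha v chain gene, lay at 31.4, 36.3 and 36.7 CPM in vehicle and at 51.3, 58.3 and 57.1 CPM in PEox, again without overlap. Its log2 fold change was 0.68 with an SE of 0.10 (adjusted p = 0.000866, edgeR). In the reference annotation it shares 634 exon bases with the transcript Gm13684 on the opposite strand, which had 46 to 200 counts per library against 1994 to 3453 for Itgav. Itgb3 encodes the beta 3 chain, the partner of alpha v in the vitronectin receptor and of alpha IIb (Itga2b) in the platelet fibrinogen receptor. It lay at 130, 134 and 133 CPM in vehicle and at 173, 162 and 203 CPM in PEox. The vehicle libraries were nearly equal and PEox library 3 was the highest. Its log2 fold change was 0.44 with an SE of 0.08 (adjusted p = 0.00376, edgeR); after the GC and length correction it was 0.29 and still called.

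Markers of other cell types that can carry alpha v, beta 1 or beta 3 went in different directions. Platelet and megakaryocyte markers were lower in PEox, from sums of 29.8 to 32.5 CPM to 4.57 to 5.96 CPM over the 8 markers. Of 4 tested, 2 were called lower and none higher, against 18.8% and 18.3% of all genes. Gp9 was at or near 0, with no library above 0.0477 CPM, and Treml1 and Gp6 were at 0 in all libraries. Stromal markers were higher, with sums of 190 to 197 CPM in vehicle and 299 to 331 in PEox. Of 9 stromal markers, 5 were called higher and 1 lower, against 18.3% and 18.8% of all genes. Endothelial markers summed to 71 to 87.3 CPM in vehicle and 81.1 to 104 in PEox with no call among 7 tested, and the defining genes Cdh5 and Kdr did not exceed 0.378 CPM in any library. The part of stromal RNA in the Itgb1 and Itgav differences was not tested.

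Itgal encodes the alpha L chain (CD11a) of LFA-1. It lay at 165, 191 and 205 CPM in vehicle and at 239, 247 and 275 CPM in PEox, without overlap. The means were 187 ± 20.4 and 254 ± 18.9 CPM (n = 3 per group, SD), a log2 fold change of 0.44 with an SE of 0.09 (adjusted p = 0.0051, edgeR). Itgb2, the gene of the beta 2 chain (CD18) that alpha L needs as its partner, lay at 344, 351 and 279 CPM in vehicle and at 339, 309 and 363 CPM in PEox. The groups overlapped, with vehicle library 3 the lowest of all. The means were 325 ± 39.7 and 337 ± 26.8 CPM (n = 3 per group, SD), and the log2 fold change was 0.05 with an SE of 0.10 (adjusted p = 0.713, edgeR). The 95% interval ran from -0.16 to 0.27, so a change within these limits is not excluded. The sign of Itgb2 turned without vehicle library 3, to -0.05.

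Markers of other lymphocytes, which also carry alpha L, beta 2, alpha 4 and alpha E chains, were lower in the PEox libraries. T cell markers summed to 113 to 124 CPM in vehicle and 49.9 to 60.6 in PEox, with 5 of 8 called lower and 1 higher. ILC1 and natural killer cell markers summed to 528 to 551 CPM in vehicle and 195 to 217 in PEox. Of 8 such markers, 7 were called lower and none higher. These counts stand against 18.8% of all genes called lower and 18.3% higher, and against 9 lower and 2 higher of the 15 ILC3 markers. The part of the other lymphocytes in the levels of Itgal, Itgb2, Itga4 and Itgae was not tested. Erythroid markers, which do not mark lymphocytes, were higher, at 2750 to 2800 CPM in vehicle and 5120 to 5810 in PEox, with 5 of 7 tested called higher and none lower.

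Icam1 encodes ICAM-1, an inducible membrane protein of the immunoglobulin family that LFA-1 binds. It lay at 214, 204 and 162 CPM in vehicle and at 79.3, 67.1 and 52.7 CPM in PEox. The lowest vehicle library was more than 2 times the highest PEox library. The means were 193 ± 27.5 and 66.4 ± 13.3 CPM (n = 3 per group, SD), a log2 fold change of -1.54 with an SE of 0.16 (adjusted p = 0.000149, edgeR), or 2.91-fold lower. It was the largest difference among the 9 genes in either direction. In the reference annotation Icam1 shares 511 exon bases with the antisense transcript Gm47079, which had 6 to 39 counts per library against 3188 to 13614 for Icam1. Markers of other cells that can carry ICAM-1 were lower in the same libraries. B and plasma cell markers summed to 288 to 306 CPM in vehicle and 37.5 to 44 in PEox, with 8 of 8 called lower. Macrophage, monocyte and neutrophil markers summed to 213 to 224 CPM and 107 to 155 CPM, with 5 of 11 called lower and none higher. Of all genes, 18.8% were called lower and 18.3% higher. The part of these other cells in the Icam1 difference was not tested.

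**Figure D2:**
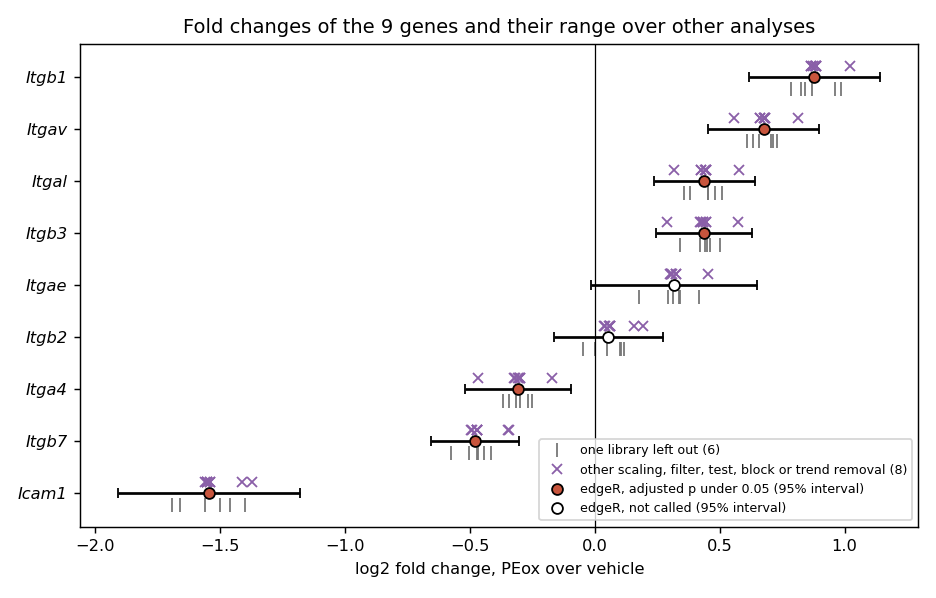
Log2 fold change of PEox over vehicle for each gene with its 95% interval (circles, filled where called by edgeR), with the values when 1 library was left out (grey bars, 6 per gene) and under 8 other analyses (crosses). Only the points of Itgb2 fall on both sides of 0; Icam1 lies between -1.69 and -1.37 in all of them.

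Levels of different genes were compared as CPM per kilobase of the longest annotated transcript, which may not be the form these cells make. In vehicle, Itgb7 was highest at 621 ± 71.2, followed by Itgb2 at 109 ± 13.4, Icam1 at 76.3 ± 10.8 and Itgal at 35.8 ± 3.91 CPM per kilobase (n = 3 per group, SD). Itgb1 at 25.3 ± 3.53 and Itgb3 at 22.9 ± 0.45 overlapped with each other, as did Itga4 at 5.03 ± 0.43 and Itgav at 4.93 ± 0.42, and Itgae was lowest at 4.21 ± 0.14 CPM per kilobase (n = 3 per group, SD). The remaining neighbours in that order did not overlap. In PEox, Itgb7 at 445 ± 10.9 and Itgb2 at 114 ± 9.01 remained at the head of the order. Itgal at 48.6 ± 3.63 and Itgb1 at 46.5 ± 4.86 came next and overlapped, and Icam1 dropped to the sixth place at 26.2 ± 5.26, overlapping with Itgb3 at 31.0 ± 3.65 CPM per kilobase (n = 3 per group, SD). Itga4 was then the lowest at 4.06 ± 0.20 CPM per kilobase, below Itgae at 5.24 ± 0.88 (n = 3 per group, SD). Among these 8 genes, each beta gene thus lay above the alpha genes it can pair with in both groups, on this scale.

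Among the 4 beta subunit genes, Itgb7 made up 80.8%, 79.6% and 78.7% of the summed level per kilobase in the vehicle libraries and 70.3%, 71.6% and 68.1% in the PEox libraries. Itgb1 made up 2.63%, 3.06% and 4.22% in vehicle and 6.57%, 7.75% and 7.59% in PEox. Itgb2 went from 14.0% ± 0.40 to 17.8% ± 1.4 and Itgb3 from 2.97% ± 0.35 to 4.87% ± 0.52 (n = 3 per group, SD). Shares that sum to a whole move against each other, so these are given without a test.

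**Figure D3:**
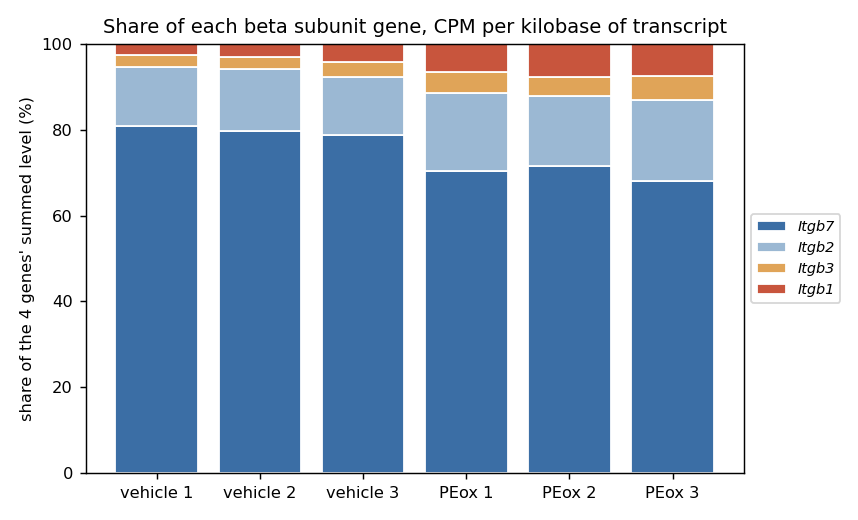
Share (%) of each of the 4 beta subunit genes in their summed CPM per kilobase of transcript, stacked for each library. Itgb7 holds 78.7% to 80.8% in vehicle and 68.1% to 71.6% in PEox, and Itgb1 is larger in every PEox library than in any vehicle library.

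Ratios of 2 genes within a library do not depend on how libraries are scaled, and 6 ratios between possible partners or competitors were compared by a two-sided exact permutation test over libraries, whose smallest possible p with 3 against 3 is 0.1. Itgb1 to Itgb7, the chains that compete for alpha 4, was 0.0326, 0.0384 and 0.0537 in vehicle and 0.0935, 0.108 and 0.111 in PEox, a difference of 1.36 on the log2 scale (exact p = 0.1, adjusted p = 0.15 over the 6 ratios). Every PEox library was above every vehicle library. Itga4 to Itgb1 went the other way, from 0.201 ± 0.026 to 0.0883 ± 0.014 (n = 3 per group, SD; log2 difference -1.19, exact p = 0.1, adjusted 0.15). Itgae to Itgb7, the partners in the E-cadherin receptor, went from 0.00682 ± 0.00064 to 0.0118 ± 0.0022 (n = 3 per group, SD; log2 difference 0.78, exact p = 0.1, adjusted 0.15). The groups of Itga4 to Itgb7 overlapped, at 0.00821 ± 0.0016 and 0.00913 ± 0.00051 (n = 3 per group, SD; exact p = 0.4), and so did those of Itgal to Itgb2 at 0.334 ± 0.076 and 0.429 ± 0.027 (n = 3 per group, SD; exact p = 0.2). Itgav to Itgb3 was 0.215 ± 0.014 in vehicle and 0.256 ± 0.034 in PEox (n = 3 per group, SD; log2 difference 0.25, exact p = 0.1, adjusted 0.15). No ratio can pass a threshold of 0.05 in this design.

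The other integrin genes and the genes around them were then read from lists, against 18.3% of all genes called higher and 18.8% called lower. These shares also cover weakly expressed genes, and among genes with at least 5 CPM in 3 libraries more were called, 6507 of 10743 in either direction. Of 14 other alpha subunit genes 12 were tested, 1 rose and none fell, a share below that of all genes. Itga5, which pairs with beta 1 in the fibronectin receptor, lay at 71.3, 72.6 and 73.2 CPM in vehicle and at 111, 122 and 116 CPM in PEox (0.68 ± 0.06 as log2 fold change and SE, adjusted p = 6.69e-05 by edgeR). Itgam, the alpha chain gene of the myeloid integrin Mac-1, was low at 1.42 ± 0.61 and 0.577 ± 0.34 CPM (n = 3 per group, SD) and did not pass, nor did Itga6, a laminin receptor gene, at 10.96 ± 2.76 and 14.3 ± 2.41 CPM (n = 3 per group, SD). Of the 4 remaining beta genes 2 were tested. Itgb5, another partner of alpha v, rose from 83.1, 82.7 and 68.0 CPM to 186, 183 and 196 CPM (1.27 ± 0.09 as log2 fold change and SE, adjusted p = 1.74e-05 by edgeR), a larger difference than that of Itgb1, although these were not tested against each other. Itgb4, the epithelial laminin receptor chain, lay at 1.70 ± 0.85 and 0.757 ± 0.66 CPM (n = 3 per group, SD) and did not pass.

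Of 9 other counter-receptor genes tested 1 fell and none rose, where 37.1% of all genes were called in either direction, and the median log2 fold change was -0.35. That median was -0.14 without vehicle library 1, -0.06 without PEox library 2 and -0.64 without PEox library 3, and 2 genes fell without PEox library 1 while 1 rose without PEox library 3. The one called was Icam2, which encodes a constitutive LFA-1 ligand, at 77.3 ± 4.55 CPM in vehicle and 35.7 ± 5.62 in PEox (n = 3 per group, SD; -1.11 ± 0.12 as log2 fold change and SE, adjusted p = 0.000176 by edgeR). Pecam1 (77.0 ± 8.12 and 92.1 ± 11.4 CPM) and Vcam1, the alpha 4 beta 1 ligand gene (2.67 ± 0.72 and 1.28 ± 0.79 CPM; n = 3 per group, SD), did not pass. Of 14 matrix ligand genes tested 2 rose and 2 fell; 4 rose without PEox library 2, and 1 fell without vehicle library 2 or vehicle library 3. The collagen gene Col1a1 rose from 37.9 ± 2.18 to 91.3 ± 9.90 CPM and the laminin gene Lamc1 from 20.2 ± 2.96 to 33.4 ± 4.75 CPM, while Thbs1, the thrombospondin 1 gene, fell from 33.0 ± 4.03 to 18.7 ± 0.53 CPM (n = 3 per group, SD). The other one that fell, named after its value was seen, was the tenascin gene Tnc, from 13.3 ± 2.59 to 7.96 ± 0.67 CPM. The stromal markers given above, Col1a1 among them, were higher in the same libraries.

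Selectin genes and the genes that build selectin ligands were lower in more cases than higher, with 7 of 15 falling and 3 rising, against 18.8% and 18.3% of all genes, and a median log2 fold change of -0.27. Spn, which encodes the leukocyte sialomucin CD43, fell from 84.4 ± 7.53 to 46.2 ± 3.92 CPM and the sialyltransferase gene St3gal6 from 87.1 ± 3.21 to 51.7 ± 1.84 CPM (n = 3 per group, SD). Selplg, the P-selectin ligand gene, chosen after its values were seen, fell only from 2109 ± 14.9 to 1935 ± 24.5 CPM (n = 3 per group, SD). The 3 that rose, named after their values were seen, were the fucosyltransferase gene Fut4 (log2 fold change 1.24), the galactosyltransferase gene B4galt1 (0.49) and Cd44 (0.20), the hyaluronan receptor gene. The number of falling genes was 4 with library size scaling and 3 after the GC and length correction, and the median was -0.13 with that scaling, -0.45 without vehicle library 1 and -0.56 without PEox library 1.

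Inside-out activation genes divided, with 8 of 19 falling and 5 rising, against 18.8% and 18.3% of all genes. Their median was -0.05, ran from -0.17 to -0.01 with 1 library left out and was 0.09 with library size scaling. Skap1, an adaptor between antigen receptor signals and integrins, fell from 395 ± 13.2 to 247 ± 8.78 CPM, and Itgb1bp1, whose product binds the beta 1 tail, from 134 ± 5.90 to 91.4 ± 4.37 CPM (n = 3 per group, SD). Cyth1, whose product cytohesin 1 binds the beta 2 tail, rose from 108 ± 6.27 to 177 ± 7.32 CPM (n = 3 per group, SD). Also higher, and named after their values were seen, were Rassf5 (log2 fold change 0.45) and Stk4 (0.51), whose products link the GTPase Rap1 to LFA-1, with Rapgef1 (0.36), a Rap1 activator gene, and Sipa1 (0.29), a Rap1 inactivator gene. Other Rap1 genes were among those that fell, namely Rasgrp2 (-1.31), a Rap1 activator gene, Rap1b (-0.25), which encodes Rap1 itself, and Apbb1ip (-0.53), whose product links Rap1 to talin, and so was the adaptor gene Fyb (-0.59), all named after their values were seen. Of the genes for the proteins that engage the beta tails, named after their values were seen, the kindlin 3 gene Fermt3 fell from 519 ± 54 to 390 ± 18.5 CPM (log2 fold change -0.41, edgeR adjusted p = 0.00346), and the weakly expressed talin gene Tln2 fell from 1.55 ± 0.62 to 0.343 ± 0.13 CPM (adjusted p = 0.0142, edgeR), whereas the main talin gene Tln1 lay at 173 ± 10.2 and 157 ± 23.4 CPM (n = 3 per group, SD; edgeR adjusted p = 0.331). Genes of the adhesion complex and of outside-in signalling rose in 13 of 29 cases and fell in 1, against 18.3% and 18.8% of all genes, with a median of 0.16 (0.30 with library size scaling) against 0.00 over all genes. The kinase gene Src rose from 18.3 ± 0.69 to 49.1 ± 8.16 CPM, the crosslinker gene Actn4 from 264 ± 7.84 to 420 ± 36.7 CPM and the adaptor gene Crk from 49.1 ± 3.13 to 85.8 ± 8.76 CPM (n = 3 per group, SD). The one that fell, chosen after its value was seen, was the kinase gene Syk, from 10.6 ± 1.69 to 5.12 ± 2.27 CPM (n = 3 per group, SD). The number falling was 0 without PEox library 3 or any 1 of the vehicle libraries, and 2 without PEox library 1 or PEox library 2.

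The TGF-beta pathway, which alpha v integrins activate and which induces Itgae, had 8 of 17 genes rising and 1 falling, against 18.3% and 18.8% of all genes, and a median log2 fold change of 0.45. The receptor gene Tgfbr2 rose from 74.5 ± 9.48 to 182 ± 1.66 CPM, and the feedback repressor genes Skil and Ski rose from 77.0 ± 0.58 to 157 ± 4.34 CPM and from 18.1 ± 1.98 to 36.3 ± 8.06 CPM (n = 3 per group, SD). The gene that fell was Runx3, chosen after its value was seen, a transcription factor gene needed for Itgae in T cells, from 267 ± 7.48 to 216 ± 25.1 CPM (n = 3 per group, SD; edgeR adjusted p = 0.0182). The number falling was 0 without PEox library 1 or any 1 of the vehicle libraries, and 2 without PEox library 2. Among gut homing partners and retinoic acid receptors 5 of 12 fell and 4 rose, against 18.8% and 18.3% of all genes. Their median was -0.24, but -0.05 without vehicle library 1, -0.37 without vehicle library 3, -0.10 with library size scaling and -0.04 after the GC and length correction. The gut homing receptor gene Ccr9, which acts beside alpha 4 beta 7, lay at 41.9 ± 3.66 and 18.5 ± 1.09 CPM, the chemokine receptor gene Ccr6 at 356 ± 10.7 and 147 ± 8.33 CPM and Cd69, a tissue retention gene, at 211 ± 14.6 and 122 ± 7.26 CPM (n = 3 per group, SD), all called lower. The rest of the called genes, named after their values were seen, were Cxcr6 (log2 fold change -0.41) and Ccr7 (-0.84) among the lower and the retinoid receptor genes Rxra (0.93), Rarg (0.78) and Rxrb (0.40) and the egress receptor gene S1pr1 (0.59) among the higher. The number of rising genes in that list was 1 without vehicle library 1 and 2 without vehicle library 2.

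Genes that induce Icam1 in many cells also divided, with 6 of 14 falling and 4 rising, against 18.8% and 18.3% of all genes. Their median was -0.22, but -0.12 without PEox library 3, -0.09 with library size scaling and -0.06 after the GC and length correction. The interferon regulatory factor gene Irf1 fell from 321 ± 2.17 to 176 ± 4.24 CPM, while the interferon gamma receptor gene Ifngr1 rose from 767 ± 57.7 to 1249 ± 23.4 CPM (n = 3 per group, SD). The other genes that rose, named after their values were seen, were Ifngr2 (log2 fold change 0.53), Nfkb1 (0.48) and Stat3 (0.38). Over the 10 lists together, counting each gene once, 41 of 143 tested genes rose (28.7%) and 31 fell (21.7%). Of all genes, 18.3% rose and 18.8% fell. Among genes with at least 5 CPM in 3 libraries, 6507 of 10743 were called, 51.1% of these calls being higher. Neither list share is therefore read as raised. The lists were not matched to all genes for expression level.

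**Figure D4:**
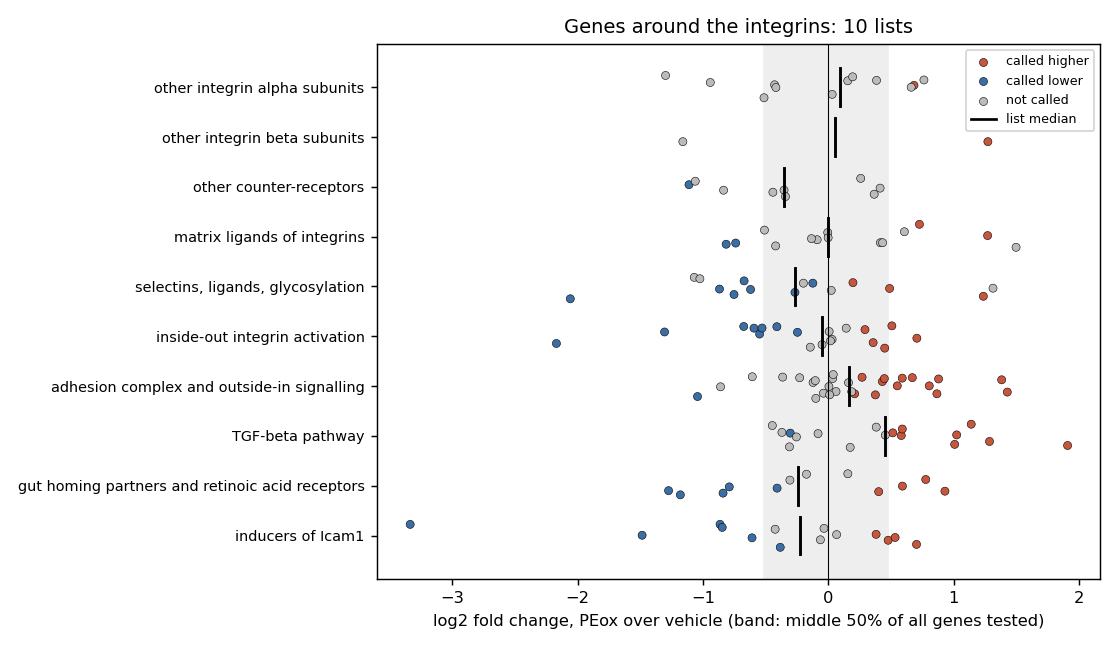
Log2 fold change of PEox over vehicle for each tested gene of the 10 lists (red called higher, blue called lower, grey not called; black lines, list medians; grey band, middle 50% of all genes tested). The TGF-beta list has 8 red points and 1 blue point, and the inside-out activation list has 5 red and 8 blue.

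For 3 members the genes of most similar pattern were sought over the 6 libraries among 9820 genes, by the root mean square distance of mean-centred log2 CPM values. Since the libraries form 2 groups, this likeness mainly reflects the group difference. Closest to Itgb7 were Anxa6 (distance 0.0333; 719 CPM in vehicle and 503 in PEox) and Pold1 (0.0346). Closest to Icam1 were Ifitm2 (0.0766; 80 and 26.3 CPM) and Cd3d (0.117), and closest to Itgae were Rnf125 (0.0469) and Trmt11 (0.0502).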

How the data were processed

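RNA-seq libraries of 3 vehicle and 3 PEox samples were analysed. Per the labels' protocols, reads were cleaned with fastp and aligned with HISAT2 2.0.5; edgeR 3.22.5 is listed as well, per the submitters' processing notes. No counter, genome build, annotation or strand setting is given in the sources used here, and overlapping genes are therefore uncertain. The authors deposited raw, unnormalized counts per gene, and 0 sample columns were unused.

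Symbols were matched by identifier (55141 of 55401 named). The test was edgeR 4.0.16 in R 4.3.3: filterByExpr, TMM, a robust quasi-likelihood fit with group as the single term, and Benjamini-Hochberg adjustment over 18253 genes. CPM uses TMM factors, and standard errors are the log2 fold change over the root of F. Lengths came from GENCODE M21. Alternatives were RLE or library size scaling, other filters, DESeq2 1.42.0, limma-voom (limma 3.58.1), a replicate block and leaving out each library. A further alternative, not planned beforehand, was removal of the length and GC trend by loess (span 0.5). The procedure was tested on simulated data. It called 44 of 91 genes given a log2 change of 1 (48.4%) and 75 of 97 given a log2 change of 2 (77.3%). Of 17213 genes given no change it called 9. The simulation changed few genes, drawn from all expression levels, whereas 37.1% of genes were called in the data. Its rates therefore need not hold for the genes reported here. A gene that was not called may still have changed. Members, lists and rules were chosen with earlier results of these data known. Beyond the 9 members, up to 3 tested genes per list with the smallest p-values are named, with the exceptions stated as chosen after their values were seen. A few genes within this rule are left unreported.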

Additional observations from a re-analysis of the deposited data

How the results depend on the processing

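Over 14 other analyses of each of the 9 genes, Icam1, Itgb7, Itgb1, Itgav, Itgb3 and Itgal kept their direction and their call. Itga4 was not called with library size scaling (-0.17) or with the replicate block (-0.30, adjusted p = 0.0613), and leaving out 1 library gave -0.37 to -0.25. Itgae was called with library size scaling (0.45), and ran from 0.18 to 0.42 with 1 library left out. Itgb2 ran from -0.047 to 0.12 with 1 library left out, its sign turning without vehicle library 3 (-0.047) and, at a value next to 0, without PEox library 3 (-5.23e-05); the cause was not tested. Library size scaling moved the median log2 fold change of all genes to 0.14 and the share of calls that were higher from 49.3% to 61.9%; the GC and length correction gave 0.13 and 60.1%. Replicate numbers did not pair the libraries (correlations of same-numbered libraries 0.0054, 0.014 and -0.0058, and vehicle library 3 did not correlate best with its own number), and the block gave 6159 calls in place of 6775. The 54 alternative values of the ratios kept their sign. The count of falling adhesion complex genes ran from 0 to 4 and of falling TGF-beta genes from 0 to 3. The inside-out activation median was 0.09 with library size scaling, the other alpha subunit median -0.36 without PEox library 3 and the other beta subunit median 1.26 with the stricter filter, which leaves only Itgb5. Of 29 list genes within the naming rule, Pecam1 was called higher with library size scaling and without PEox library 3, and Vcam1 lower without PEox library 1; the others kept direction and side of the threshold in each analysis that tested them. Itgae, at 914 to 1399 counts, is the least deeply counted member.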
